A study of Mus musculus with 6 samples.

Results

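Expression of 10 genes of pigment cells and the retinal pigment epithelium (RPE) was examined in E10 mouse head tissue with the optic vesicles, with and without *Rdh10*, a gene needed for retinoic acid synthesis. The genes are *Pmel*, *Mitf*, *Tyr*, *Tyrp1*, *Dct*, *Kit*, *Ednrb*, *Sox10*, *Slc45a2* and *Tspan10*, and all 10 were found by name among the 26437 genes of the RNA-seq table. They were chosen by their known roles after a comparison of the same libraries had drawn attention to pigment genes. The differences between genotypes given for them are therefore a description, and the calls of the fits on them are not independent support. RNA-seq was performed on 3 wild-type libraries and 3 libraries from *Rdh10* KO embryos, which are homozygous for a null allele of the retinol dehydrogenase gene *Rdh10* in every cell. Each library came from a pool of 3 embryos at E10, wild-type and mutant alike. The mutants were obtained from matings of heterozygotes, and both groups had a mixed, outbred background (Black Swiss and C57BL/6). The dissected piece was the front of the head, with the optic vesicles, the frontonasal region and some forebrain, and the labels call it embryonic craniofacial tissue.

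In vertebrates 2 tissues make melanin, the RPE, which arises from the outer layer of the optic cup, and the melanocytes, which descend from migrating neural crest cells called melanoblasts. In both, the transcription factor *Mitf* switches on the genes of the melanosome, the organelle in which melanin is made. *Pmel* builds the fibrils on which melanin is laid down. *Tyr* starts melanin synthesis, *Dct* and *Tyrp1* catalyze later steps, and *Slc45a2* is a melanosomal transporter needed for pigmentation. *Tspan10* is a tetraspanin expressed in the RPE. *Sox10*, the receptor tyrosine kinase *Kit* and the endothelin receptor *Ednrb* are needed by melanoblasts and are not pigment genes in a strict sense, since *Sox10* also marks other neural crest cells and their glia, *Kit* blood progenitors, and *Ednrb* several neural and vascular cells.

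Promoter sequence from RefSeq (GRCm38.p6, windows of 250 bases before to 50 bases after an annotated start) was found for 7 of the 10 genes, *Mitf*, *Tyr*, *Tyrp1*, *Dct*, *Kit*, *Ednrb* and *Tspan10*. *Pmel*, *Sox10* and *Slc45a2* were not matched. The M-box core TCATGTG, a form of E-box bound by MITF and related factors, was searched on both strands. It was present in 1239 of 32851 promoter windows, or 3.77%. Some genes have several windows, and of the 10 windows of the 7 genes 4 held it, in *Tyr*, *Tyrp1*, *Dct* and *Tspan10*. The motif lay 22 bases before the start of *Tyr*, 47 before that of *Tyrp1* and 21 before that of *Tspan10*, and *Dct* held it at 232 and 151 bases. These starts are those of RefSeq. The gene positions given below are from another annotation, GENCODE, in which *Tyrp1* begins at 80834123, so that its motif lies after that start. The motif TAATCC, the core bound by OTX2 and related homeodomain factors, was in 7.06% of all windows and in 4 of the 10 windows of the 7 genes. It was found in *Dct* at 119 bases, in *Ednrb* at 25 bases, in 1 of the windows of *Mitf* at 119 bases, and in *Tyrp1* just after the start. The 2 motifs do not overlap each other. A match describes the letters of the window and is not evidence that a factor binds there.

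The stretches before the RefSeq start of these 4 genes are printed because they hold the M-box core. That of *Trpm1*, which also holds it, is added for a further melanosome gene that is called lower below. The promoters of the other genes of that list are not given. Capitals mark the M-box core and TAATCC, in either direction, and each run reads 5′ to 3′ on the gene's own strand.

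Tyr chr7:87493513-87493612, minus strand: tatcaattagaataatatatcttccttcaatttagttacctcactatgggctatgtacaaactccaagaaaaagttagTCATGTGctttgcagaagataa

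Tyrp1 chr4:80834113-80834212, plus strand: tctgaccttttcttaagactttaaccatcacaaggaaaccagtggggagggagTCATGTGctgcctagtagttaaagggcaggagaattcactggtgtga

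Dct chr14:118052347-118052496, minus strand: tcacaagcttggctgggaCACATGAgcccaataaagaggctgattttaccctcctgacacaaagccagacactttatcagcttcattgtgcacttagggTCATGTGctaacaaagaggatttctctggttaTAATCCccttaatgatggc

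Tspan10 chr11:120442531-120442630, plus strand: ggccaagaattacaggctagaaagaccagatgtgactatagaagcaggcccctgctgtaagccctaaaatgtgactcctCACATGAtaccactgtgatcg

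Trpm1 chr7:64153675-64153834, plus strand: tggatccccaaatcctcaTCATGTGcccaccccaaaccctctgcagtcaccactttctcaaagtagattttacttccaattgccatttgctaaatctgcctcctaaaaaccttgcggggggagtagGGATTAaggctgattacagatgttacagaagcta

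The reads counted on genes ranged from 16392777 to 27101025 per library. Values are normalized counts, obtained by dividing the reads of each gene by the library's scaling factor, so that 1 read is worth 0.716 to 1.18 normalized counts. A gene with at most 10 reads in each of the 6 libraries is said to have few reads, which applies to 4 of the 10 genes, *Tyr*, *Tyrp1*, *Slc45a2* and *Tspan10*. A gene was called lower or higher in *Rdh10* KO where the adjusted p-value of a limma fit over 22921 genes was under 0.05 and the log2 fold change, on the scale log2(normalized counts + 0.1), was beyond 0.85. *Rdh10* itself was at 399, 342 and 381 normalized counts in wild-type pools, compared with 183, 142 and 181 in the mutant ones. The labels and this gene go together, with a mutant level at 45.1% of wild-type. In bulk tissue, fewer cells of a type and less RNA per cell cannot be told apart.

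Of the 10 genes, *Pmel*, *Dct* and *Tspan10* were called lower and none higher (limma). The edgeR quasi-likelihood test on recovered reads called 3 lower, the likelihood ratio test 4, with *Tyr* added, and DESeq2 2, as it gave no adjusted p-value for *Tspan10*, and each called 0 higher. Of all genes, limma called 0.886% lower and 2.41% higher. At an unadjusted p-value under 0.05 in the limma fit, 3 of the 10 were lower and 2 higher, while 14.9% of all genes were lower and 15.8% higher, shares that also stand behind the counts at unadjusted p-values given for the lists below. In 4 genes, *Pmel*, *Dct*, *Tyrp1* and *Tspan10*, each *Rdh10* KO value was below each wild-type value, as for 17.0% of all genes, and in *Kit* and *Ednrb* each was above, as for 17.6%. Median scaling of the libraries gave 288 lower and 446 higher over all genes, in place of 203 and 552. Since the genes were drawn up with this comparison known, nothing is read from these counts. The median log2 fold change was −1.04 over the 10 genes and 0.0036 over all genes tested. It was −0.22 with *Tspan10* at its bound from the limit of 3 reads per library. There *Tyr* and *Slc45a2*, for which that limit gives no bound, were taken at 0.

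**Figure D1:**
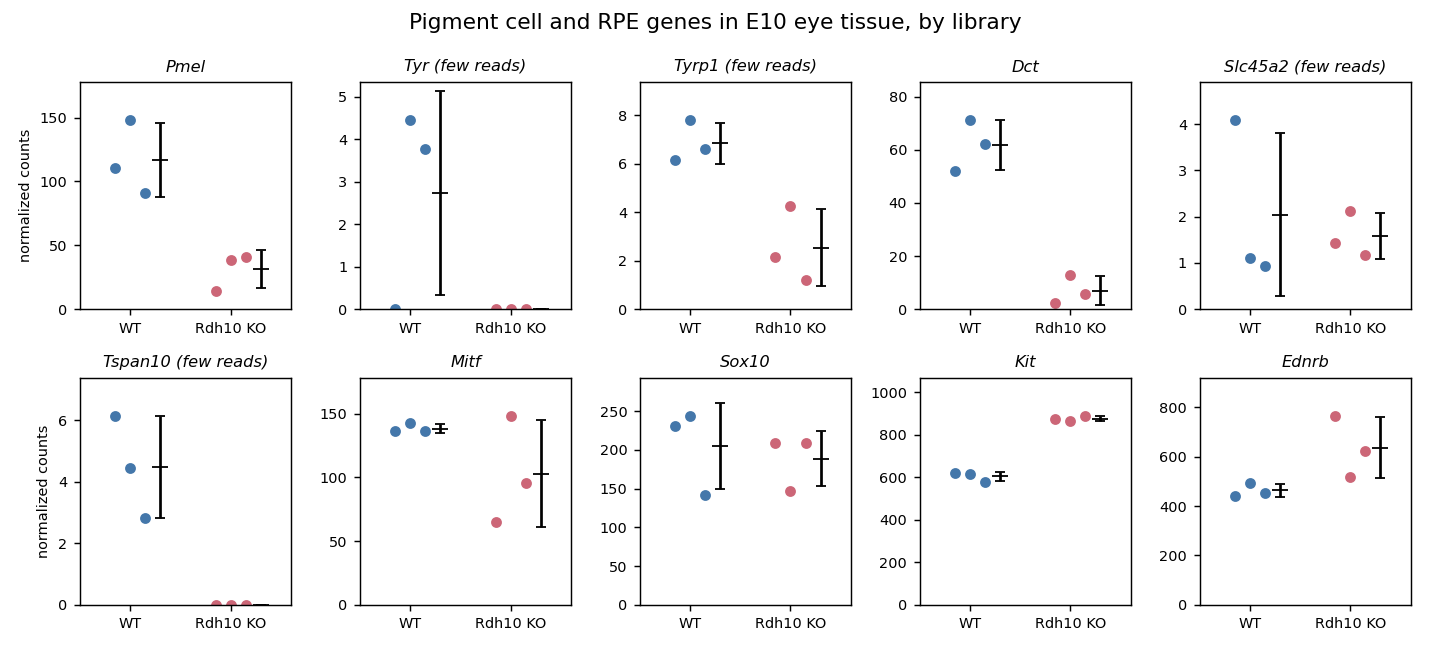
Normalized counts (vertical axes from 0, scaled for each gene) of the 10 genes in the 3 wild-type (WT) and 3 *Rdh10* KO libraries; points are libraries, and the bars beside them the mean and SD. *Pmel* and *Dct* are well below wild-type in all 3 *Rdh10* KO libraries, *Mitf* and *Sox10* overlap, and *Kit* and *Ednrb* lie above.

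Among the genes of the melanosome, *Pmel* (ENSMUSG00000025359.9, GRCm38 chromosome 10, 128704195 to 128720238) was at 110, 148 and 91.2 normalized counts in wild-type pools, compared with 14.3, 38.4 and 41.2 in the mutant ones. The groups were well apart, with the lowest wild-type library far above the highest mutant library. The means were 117 ± 28.9 and 31.3 ± 14.8 (SD, n = 3 each), that is, a mutant level at 26.9% of wild-type and a log2 fold change of −2.01 (SE 0.36). The call of *Pmel*, and that of *Dct* below, was lost in a fit without the intensity trend, with the same log2 fold changes. The gene overlaps *Cdk2* and *Dgka*, which are transcribed from the other strand.

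*Dct* (ENSMUSG00000022129.3, chromosome 14, 118012790 to 118052244), which encodes dopachrome tautomerase, was at 52.2, 71.2 and 62.1 normalized counts in wild-type pools, compared with 2.15, 12.8 and 5.88 in the mutant ones. The mutant libraries were all far below wild-type but differed widely among themselves, with only 3, 12 and 5 reads. The means were 61.8 ± 9.53 and 6.94 ± 5.40 (SD, n = 3 each), or 11.2% of wild-type, with a log2 fold change of −3.46 (SE 0.54). Over the summed reads, 181 in wild-type and 20 in *Rdh10* KO, the normalized ratio was 0.102, with a 95% exact interval of 0.0609 to 0.162 that covers counting error only.

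*Tyrp1* (ENSMUSG00000005994.14, chromosome 4, 80834123 to 80851719) had few reads, 6, 7 and 7 in wild-type and 3, 4 and 1 in *Rdh10* KO libraries. These correspond to 6.14, 7.79 and 6.58 against 2.15, 4.27 and 1.18 normalized counts, a ratio of 0.369 over the summed reads with an exact interval of 0.141 to 0.875. The groups did not overlap, and the gene was not called. *Tyr* (ENSMUSG00000004651.6, chromosome 7, 87424771 to 87493512), the gene of the enzyme tyrosinase, was covered by 0, 4 and 4 reads in wild-type and by 0 in each *Rdh10* KO library. As 1 wild-type library was also at 0, the groups overlap, and no fold is given from the means, because the limit that a count of 0 allows, 2.15 to 3.53 normalized counts per library, is close to the wild-type mean of 2.74. Over the summed reads, 8 in wild-type and 0 in *Rdh10* KO, the exact interval of the normalized ratio was 0 to 0.541, for counting error only. *Tyr* was called lower by the edgeR likelihood ratio test on recovered reads and by no other fit.

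*Slc45a2* (ENSMUSG00000022243.10, chromosome 15, 11000721 to 11029233) was at 4, 1 and 1 reads in wild-type and 2, 2 and 1 in *Rdh10* KO libraries. The ratio over the summed reads was 0.769, with an exact interval of 0.186 to 3.03, and a difference was not detectable at this depth. For *Tspan10* (ENSMUSG00000039691.10, chromosome 11, 120442644 to 120446950), 6, 4 and 3 reads were counted in wild-type and 0 in each *Rdh10* KO library. The wild-type mean of 4.47 ± 1.66 normalized counts (SD, n = 3) was at least 1.27-fold higher than the limit of 3 reads in any *Rdh10* KO library. Over the summed reads, 13 in wild-type and 0 in *Rdh10* KO, the exact interval of the normalized ratio was 0 to 0.303. That interval covers counting error only. *Tspan10* was called lower with all 6 libraries but not when any 1 of the wild-type libraries was left out, where the fitted log2 fold change was −5.19, −5.42 and −5.74 without replicate 1, 2 and 3. These fitted values rest on the added 0.1 and are no measure of the fold.

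*Mitf* (ENSMUSG00000035158.15, chromosome 6, 97807052 to 98021349), the regulator of the melanosome genes, was at 136, 142 and 136 normalized counts in wild-type pools, compared with 65.2, 148 and 95.3 in the mutant ones. *Rdh10* KO replicate 2 was above all wild-type libraries, and the other two were below them. The means were 138 ± 3.61 and 103 ± 42.1 (SD, n = 3 each), with a log2 fold change of −0.51 (SE 0.24), which was −0.22 without *Rdh10* KO replicate 1 and −0.81 without replicate 2. *Mitf* was not called in either case. The gene has several promoters, and the signal adds up all its transcripts.

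Because *Mitf* differed so much between the mutant pools, the signal of *Pmel* and *Dct* was divided by that of *Mitf* in the same library. The ratio of *Pmel* to *Mitf* was 0.812, 1.04 and 0.669 in wild-type and 0.220, 0.259 and 0.432 in *Rdh10* KO libraries. For *Dct* it was 0.383, 0.50 and 0.455 against 0.0330, 0.0863 and 0.0617. Both ratios were lower in all *Rdh10* KO libraries than in any wild-type library, including *Rdh10* KO replicate 2, in which *Mitf* itself was at the wild-type level. These lower ratios follow largely from the values of *Pmel* and *Dct* given above and are not separate support. The *Mitf* signal sums all cells of the piece, so the ratios do not describe single cells. The ratio of *Kit* to *Mitf* was higher in all mutant libraries, with 4.55, 4.31 and 4.23 in wild-type against 13.4, 5.84 and 9.32, and that of *Sox10* overlapped, with 1.69, 1.71 and 1.03 against 3.21, 0.993 and 2.19.

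**Figure D2:**
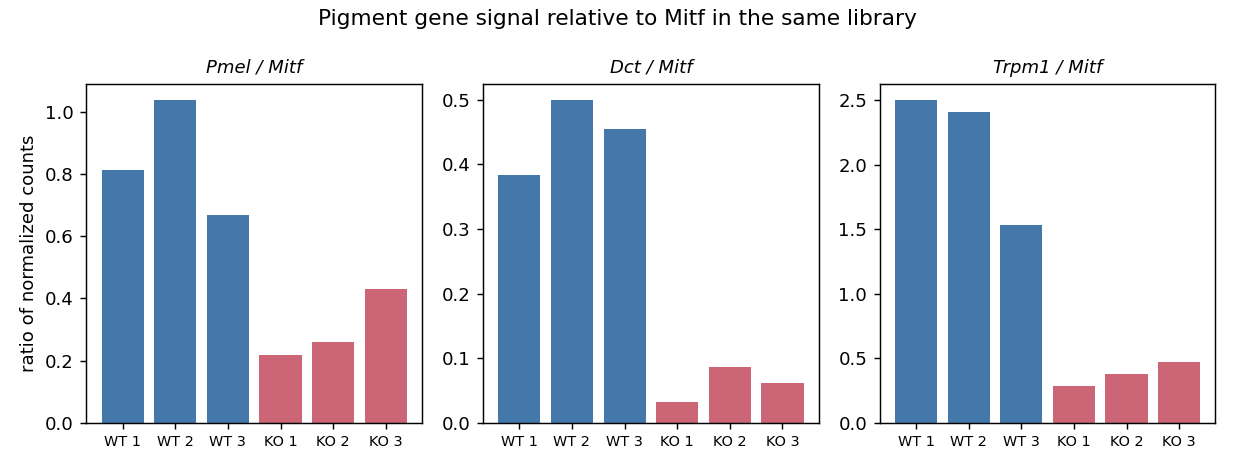
Ratio of the normalized counts of *Pmel*, *Dct* and the melanosome gene *Trpm1* to those of *Mitf* (vertical axes from 0) in each wild-type (WT) and *Rdh10* KO (KO) library, 1 bar per library. All *Rdh10* KO bars are lower than all wild-type bars, with *Dct* at 0.0330 to 0.0863 against 0.383 to 0.50. Each of these genes is itself called lower, so the ratios are not separate support.

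Next were the genes of melanoblast specification and signaling. *Sox10* (ENSMUSG00000033006.9, chromosome 15, 79154908 to 79165240), a neural crest transcription factor that acts upstream of *Mitf* in melanoblasts, was at 230, 244 and 141 normalized counts in wild-type pools, compared with 209, 147 and 208 in the mutant ones. The groups overlapped fully, with means of 205 ± 55.8 and 188 ± 35.5 (SD, n = 3 each) and a log2 fold change of −0.10 (SE 0.20). *Kit* (ENSMUSG00000005672.12, chromosome 5, 75574916 to 75656722) was at 619, 614 and 577 normalized counts in wild-type pools, compared with 873, 866 and 888 in the mutant ones. The spread within both groups was small, and the *Rdh10* KO mean was 145% of wild-type, with a log2 fold change of 0.54 (SE 0.08). *Ednrb* (ENSMUSG00000022122.14, chromosome 14, 103814625 to 103844402) was at 442, 494 and 455 normalized counts in wild-type pools, compared with 765, 518 and 624 in the mutant ones. The mutant mean was 137% of wild-type and the log2 fold change 0.44 (SE 0.13), or 0.30 without *Rdh10* KO replicate 1, which was the highest. Neither gene reached the log2 threshold of 0.85.

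Levels of different genes were compared per exon length, as FPKM computed from the recovered reads. In wild-type tissue the mean was 5.55 FPKM for *Ednrb*, 3.46 for *Kit*, 3.43 for *Sox10*, 2.60 for *Pmel*, 1.14 for *Mitf* and 0.536 for *Dct*, and then 0.127 for *Tspan10*, 0.124 for *Tyrp1*, 0.0351 for *Slc45a2* and 0.0197 for *Tyr*. In this order the ranges over libraries overlapped between *Kit* and *Sox10*, *Sox10* and *Pmel*, *Tspan10* and *Tyrp1*, and *Slc45a2* and *Tyr*. Within each wild-type library *Sox10* was still above *Pmel*, with 3.86, 4.07 and 2.36 against 2.47, 3.29 and 2.03 FPKM. The other pairs changed order between libraries. In *Rdh10* KO tissue *Ednrb* with 7.66, *Kit* with 5.05 and *Sox10* with 3.17 FPKM had the same places. *Pmel* with 0.701 FPKM came after *Mitf* with 0.85, with overlapping ranges, and *Dct* with 0.0602 FPKM was next to *Tyrp1* with 0.0457, again with overlapping ranges.

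**Figure D3:**
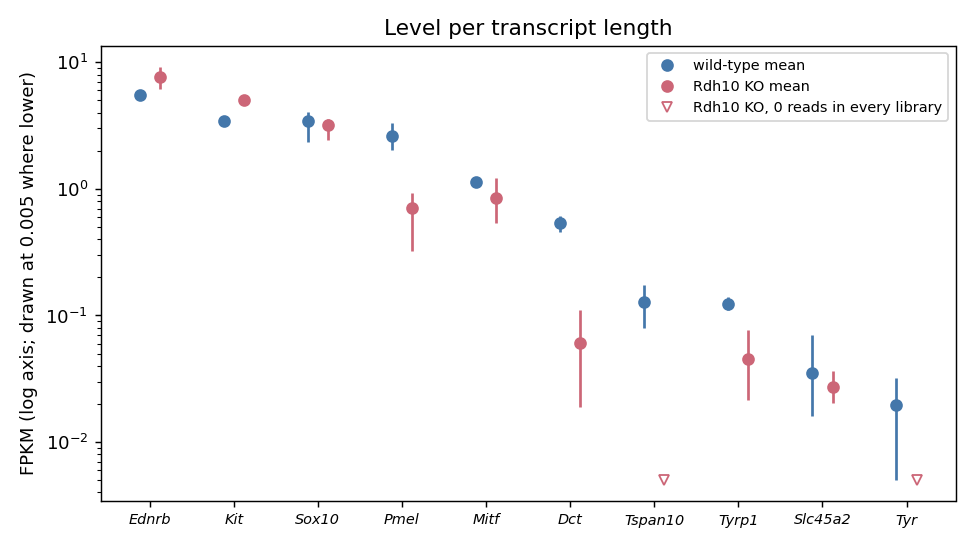
FPKM on a log axis of the 10 genes, ordered by their wild-type mean; points are means and lines the range over the 3 libraries of wild-type or *Rdh10* KO tissue, values under 0.005 are drawn at 0.005, and open triangles mark genes with 0 reads in all *Rdh10* KO libraries. *Pmel* and *Dct* are separated between the genotypes, while *Mitf* and *Sox10* overlap.

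To set these genes in their pathway, further lists were examined with the same limma fit. Behind the calls given for each list stand the shares of all genes called by limma, 0.886% lower and 2.41% higher. Of 32 melanosome genes other than the 10, 31 were tested, 2 fell and 1 rose. *Trpm1* (ENSMUSG00000030523.18, chromosome 7, 64153835 to 64269775), a cation channel gene of pigment cells regulated by MITF, was at 341, 343 and 209 normalized counts in wild-type pools, compared with 18.6, 56.5 and 44.7 in the mutant ones. Every mutant library was far below every wild-type library, with a log2 difference of −3.00 (SE 0.33; limma adjusted p = 5.50e-05). *Trpm1* was not called in the fit without the intensity trend (limma adjusted p = 0.0538). *Mir211* lies within this gene on the same strand. *Oca2* (ENSMUSG00000030450.11, chromosome 7, 56239760 to 56536518), a melanosomal membrane protein gene, was at 15.4, 17.8 and 9.40 normalized counts in wild-type pools, compared with 1.43, 2.13 and 5.88 in the mutant ones. Its log2 difference was −2.34 (SE 0.70; limma adjusted p = 0.0293), and the adjusted p-value rose to between 0.0508 and 0.123 when *Rdh10* KO replicate 1 or 2 or any wild-type library was left out. *Oca2* was not called with the replicate number as a block (limma adjusted p = 0.0682) or without the intensity trend (0.0997).

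The gene of the list that rose, *Atp7a*, encodes a copper transporter that supplies tyrosinase in the melanosome and acts in many other cells. It went from 482 ± 25.7 to 896 ± 95.9 normalized counts (SD, n = 3 each), with a log2 difference of 0.89 (SE 0.10; limma adjusted p = 4.99e-05). It fell short of the log2 threshold under median scaling with 0.81, and without *Rdh10* KO replicate 2 (0.81) or, narrowly, wild-type replicate 2. The other 28 genes were not called. Over the 31 genes, each mutant value was below each wild-type value in 7 and above it in 7 (17.0% and 17.6% of all genes). The list's median log2 fold change was −0.08. The 2 most abundant of the list per exon length, the trafficking genes *Bloc1s6* and *Ap3b1*, had 16.9 and 16.2 FPKM in wild-type and 17.9 and 24.0 in *Rdh10* KO tissue. *Rab38*, a GTPase that delivers cargo to melanosomes, *Bace2*, a protease that processes PMEL, *Myo5a*, a myosin that carries melanosomes, and *Hps3*, a subunit of a trafficking complex, are named after their values were seen. *Rab38* had 210 ± 20.4 and 119 ± 9.58 normalized counts (SD, n = 3 each), with a log2 difference of −0.82 (SE 0.15; limma adjusted p = 0.00154), under the log2 threshold. It was called lower under median scaling, under quantile normalization, and without *Rdh10* KO replicate 2 or wild-type replicate 3. *Bace2* had 8.46 to 17.4 normalized counts in wild-type pools and 3.58 to 4.71 in the mutant pools, and was not called (limma adjusted p = 0.116) other than by the edgeR likelihood ratio test. *Myo5a* was at 2270 ± 120 and 2754 ± 207 normalized counts and *Hps3* at 292 ± 29.0 and 389 ± 42.1 (SD, n = 3 each), both higher in the mutant (log2 differences of 0.28 and 0.41; limma adjusted p = 0.0195 and 0.0286) and under the log2 threshold. *Mlana* was at 3 or fewer reads in every library.

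Of 16 RPE genes, 14 were tested, none was called lower and *Crim1* was called higher. *Stra6*, named after its value was seen, was lower in each mutant library, with 651 ± 20.9 and 431 ± 15.9 normalized counts (SD, n = 3 each). Its log2 difference of −0.60 (SE 0.09; limma adjusted p = 0.00046) was under the log2 threshold. At an unadjusted p-value under 0.05 the limma fit had 5 lower and 2 higher of the 14 (14.9% and 15.8% of all genes), and the edgeR quasi-likelihood and likelihood ratio tests on recovered reads called 1 gene lower, the retinaldehyde-binding protein gene *Rlbp1*, while DESeq2 called none. *Rlbp1* had 20.6 ± 12.1 normalized counts in wild-type tissue, as against 6.91 ± 1.47 in the mutant (SD, n = 3 each). *Crim1*, a transmembrane protein gene, had 382 ± 34.7 and 790 ± 99.6 normalized counts (SD, n = 3 each), a log2 difference of 1.05 (SE 0.11; limma adjusted p = 3.98e-05). The median of the list was −0.37, or −0.24 with genes that had at most 3 reads in a group taken at the bound that allows. *Otx2*, which encodes a homeodomain factor required with MITF for RPE identity, was the most abundant of the list, with 26.9 ± 0.784 FPKM in wild-type tissue, as against 39.1 ± 4.59 in the mutant (SD, n = 3 each). Its log2 difference of 0.53 (SE 0.09; limma adjusted p = 0.000812) was under the log2 threshold. The signal of *Otx2* sums the whole dissected piece, which holds some forebrain, and the part of the RPE in it was not tested. *Serpinf1*, which encodes the secreted factor PEDF, came next with 17.2 and 15.9 FPKM. *Rpe65* and *Slc16a8*, genes of the mature RPE, were at 3 or fewer reads in every library.

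In a list of 22 genes of melanoblast signaling and regulation, 21 were tested, none fell and *Edn1* and *Snai2* rose. *Asip* was not analysed here. At an unadjusted p-value under 0.05 limma had 1 lower and 7 higher of the 21 (14.9% and 15.8% of all genes), and edgeR and DESeq2 on recovered reads also called 0 lower. *Edn1*, a ligand of the endothelin receptors, had 26.2 ± 5.82 and 70.5 ± 13.6 normalized counts (SD, n = 3 each), a log2 difference of 1.43 (SE 0.28; limma adjusted p = 0.00269). *Snai2*, a transcription factor of neural crest and mesenchyme, had 274 ± 35.0 and 515 ± 62.4 (SD, n = 3 each), a log2 difference of 0.91 (SE 0.12; limma adjusted p = 0.000226), which was 0.83 under median scaling, 0.83 on leaving out wild-type replicate 3 and 0.81 on leaving out *Rdh10* KO replicate 3. Neither gene was called without the intensity trend. The median of the list was 0.08. *Sox9* and *Tfap2b*, transcription factors of the neural crest and its derivatives, were the most abundant per exon length, *Sox9* at 16.6 FPKM in wild-type and 18.3 in mutant tissue, and *Tfap2b* at 1484 and 1294 normalized counts. The ligand of KIT, *Kitl*, named after its value was seen, was at 880, 896 and 999 normalized counts in wild-type pools, compared with 1076, 953 and 892 in the mutant ones.

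**Figure D4:**
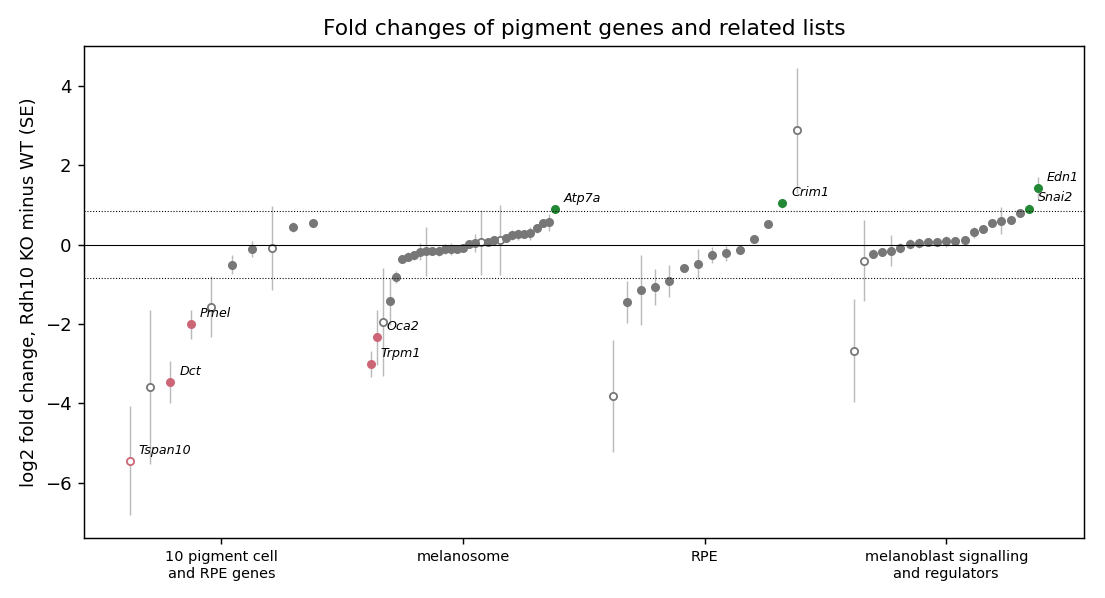
Log2 fold change, *Rdh10* KO minus wild-type (WT), with SE from the limma fit for each tested gene of the 10 pigment cell and RPE genes and of the melanosome, RPE and melanoblast lists, ordered within each; red and green points are called lower and higher, gray points not called, open points have few reads, and dotted lines mark 0.85. *Tspan10*, *Dct*, *Pmel*, *Trpm1* and *Oca2* are called lower, and *Atp7a*, *Crim1*, *Edn1* and *Snai2* higher. The medians of the melanosome, RPE and melanoblast lists are −0.08, −0.37 and 0.08. Genes of the RPE list lie from −3.81 (*Sfrp5*) to 2.88 (*Ttr*), both with few reads.

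Markers of other cells in the tissue were read from the same libraries. Behind all counts of markers at an unadjusted p-value under 0.05 (limma) stand 14.9% of all genes lower and 15.8% higher. Of 9 neural retina progenitor markers none was called (limma; 3 lower and 3 higher at an unadjusted p-value under 0.05; 0 by edgeR and DESeq2), and their summed level was 7986 to 8569 normalized counts in wild-type tissue, as against 7022 to 9169 in the mutant libraries. The lowest sum was that of *Rdh10* KO replicate 1, where *Lhx2* was at 632 normalized counts, against 1226 and 1257 in the other mutant libraries and 1649 to 1758 in wild-type. The log2 difference of *Lhx2*, −0.79 (limma adjusted p = 0.00939), was under the log2 threshold. *Lhx2* was called lower under median scaling, and without *Rdh10* KO replicate 2 or 3. *Rax* and *Six3* of the same list went the other way, *Rax* from 185 to 208 normalized counts in wild-type to 203, 352 and 395 in the mutant libraries (log2 difference 0.64; limma adjusted p = 0.0344), and *Six3* from 713 to 764 to 735, 1142 and 1311 (0.48; limma adjusted p = 0.0453), both with overlap and under the log2 threshold. These 3 genes, and *Fabp7* below, are named after their values were seen. *Rdh10* KO replicate 1 was also the lowest library for *Pmel*, *Mitf* and *Trpm1* and the deepest sequenced. Without it, the log2 fold change was −1.52 for *Pmel*, −2.81 for *Dct* and −2.53 for *Trpm1*, and all 3 were still called lower. The part of the amount of optic tissue in these values was not tested.

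Of 8 markers of neural crest glia none was called (limma; 1 lower and 0 higher at an unadjusted p-value under 0.05; 0 by edgeR and DESeq2). Their sum was 2594 to 2912 normalized counts in wild-type tissue, as against 1969 to 2402 in the mutant, and *Fabp7*, which is also expressed in neural progenitors, was at 1447 ± 78.6 and 821 ± 145 (SD, n = 3 each). Its log2 difference of −0.83 (limma adjusted p = 0.000188) was narrowly under the log2 threshold. *Fabp7* was called lower under median scaling, and without *Rdh10* KO replicate 1 or wild-type replicate 1. Without *Fabp7*, a choice made after seeing the data, the sums were 1138 to 1438 in wild-type pools and 1281 to 1426 in mutant pools, and overlapped. *S100b* was at 3 or fewer reads in every library. For *Kit*, blood and endothelial markers are of interest. Among 12 blood markers *Gata2*, a factor of blood progenitors, mast cells and neurons, fell from 374 ± 8.17 to 126 ± 46.4 normalized counts and the platelet integrin gene *Itga2b* rose from 67.4 ± 12.8 to 144 ± 17.6 (SD, n = 3 each), with adjusted p-values of 0.000115 and 0.00144 (limma). Neither was called without the intensity trend. At an unadjusted p-value under 0.05 (limma) 3 of the 12 were lower and 1 higher. Both edgeR tests and DESeq2 on recovered reads each called 1 lower and 1 higher. The sum of the blood list, which is nearly all globin, was 97956 to 131221 in wild-type and 49802 to 151136 in *Rdh10* KO libraries. None of 8 endothelial markers was called (limma; 1 lower and 4 higher at an unadjusted p-value under 0.05; 0 by edgeR and DESeq2), but their sum was 3590 to 4096 in wild-type and 4835 to 5234 in *Rdh10* KO. The part of these cells in the higher *Kit* and *Ednrb* signal was not tested.

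Finally, the profile of *Pmel*, *Tyr*, *Tyrp1* and *Dct*, as their mean z-score over the 6 libraries, was compared with 15266 other genes. The 5 most alike were *Bola3*, *Zfp335os*, *Tpt1*, *Ndufs4* and *Bcas2*, with Pearson correlations of 0.9985 to 0.993. The 6 points share the 2 genotypes, and 192 genes had a correlation above 0.95. The log2 fold changes of these 5 genes were between −0.71 and −0.22.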

How the data were processed

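RNA-seq was performed on 3 wild-type and 3 *Rdh10* KO pools of E10 tissue. According to the study's methods and the labels, directional poly(A) libraries were aligned to mm10 with TopHat, abundance was estimated by Expectation–Maximization, FPKM was used for normalization and edgeR for testing. The deposited signal, named FPKM by the authors, is reads per gene divided by 1 size factor per library and not by length. Whole reads were recovered for 100% of values in every library (within 0.1 read). The edgeR and DESeq2 counts were run on these reads after seeing the data, as was a filter of 0.5 FPKM. The table has 26437 genes and 1 line without a gene, left out, and 26296 identifiers matched GENCODE M21 (GRCm38), which gave positions and exon lengths.

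The 10 genes and all lists were chosen with earlier results of these data known. Limma 3.58.1 (R 4.3.3, intensity trend) was fitted to log2(signal + 0.1) for genes with a mean above 0.5, with Benjamini–Hochberg adjustment over 22921 genes. The design had assumed FPKM, and its cut-offs were kept. A count of 0 allows up to 3 reads. Exact binomial intervals, at 95%, cover counting error only. Named were the 10 genes, *Rdh10*, the called and the 2 most abundant genes of each pathway list, markers called or at 3 or fewer reads, and the 5 genes most alike; all others were named after their values were seen. Alternatives were pseudocounts of 1 and 0.01, other filters, median scaling, quantile normalization, no trend, no log2 threshold, a replicate block, single libraries left out, edgeR 4.0.16 and DESeq2 1.42.0. Fits were checked on simulated data in which genes with low counts were left unchanged, so the check does not cover calls of such genes. Python 3.11.15 was used for tables and plots. The p-values measure the spread between pools.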

Additional observations from a re-analysis of the deposited data

How the results depend on the processing

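The calls of the 10 genes were the same under pseudocounts of 1 and 0.01, both scalings and the replicate block. Without the intensity trend 1 of them was called lower (*Tspan10*), and with a mean above 0.5 FPKM also 1 (*Pmel*), since *Dct* and *Tspan10* are then not tested. With the adjusted p-value and no log2 threshold, 2 were higher, *Kit* and *Ednrb*. Leaving out single libraries gave 2 to 3 lower, the loss being *Tspan10*. It turned the direction of *Slc45a2* (−0.46 to 0.54) and *Sox10* (−0.35 to 0.0665: 0.0665, 0.0028 and 0.04 without *Rdh10* KO replicate 2, wild-type replicate 1 and wild-type replicate 2; *Slc45a2* was 0.09 and 0.54 without *Rdh10* KO replicate 3 and wild-type replicate 1). Depth limits the 4 genes with few reads.

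Over all genes, 203 were lower and 552 higher. Without the trend these were 118 and 294, without the log2 threshold 2091 and 2360, and 343 were lower with the edgeR likelihood ratio test. Without 1 library, 104 to 236 were lower (116, 104 and 113 without wild-type replicate 1, 2 and 3) and 373 to 547 higher. Median scaling gave 288 and 446. For melanosome genes, 4 were lower and 4 higher without the log2 threshold, 1 lower (*Trpm1*) with a mean above 10 or above 0.5 FPKM, and 0 lower without the trend (6 at an unadjusted p-value under 0.05). Median scaling gave 3 lower (*Rab38* added, as under quantile normalization) and 0 higher, and leaving out a library 1 to 2 lower and 0 to 1 higher. For RPE genes, 1 was lower without the log2 threshold (*Stra6*), with a mean above 10 (*Rlbp1*) and with both edgeR tests (*Rlbp1*), 2 were higher without the log2 threshold, and 0 to 1 were lower with a library left out (*Sfrp5*, without *Rdh10* KO replicate 3). For melanoblast genes, 6 were higher without the log2 threshold, 1 under median scaling and 0 without the trend (6 at an unadjusted p-value under 0.05), and 1 to 3 with a library left out. The causes were not tested.

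The replicate number does not pair the samples: deviations of same-numbered libraries from their group means had correlations of −0.03, −0.03 and −0.07 over 15272 genes, and no library correlated best with its own number. With the replicate number as a block, 1 melanosome gene was lower in place of 2, with *Oca2* lost, and 139 genes were lower and 460 higher over all genes.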
